A study of Mus musculus with 6 samples.

Results

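Collagens, laminins and nidogens are the structural proteins of connective tissue and of basement membranes, and their genes were followed here in the thyroid of mice with and without pendrin. The members were the genes whose symbol in the array's platform annotation begins as a collagen chain, a laminin chain or a nidogen. There were 54 of them among the 18193 genes with a probe set of their own, and 105 probe sets measured them. Each gene is represented by its probe set of the highest mean over the 6 arrays. The members held 11 fibrillar collagens, 6 collagen IV chains, 5 collagen VI chains, 9 fibril-associated collagens, 11 other collagens, 10 laminin chains and 2 nidogens.

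Thyroid was microdissected at postnatal day 15 from mice heterozygous for Slc26a4, the gene of the anion exchanger pendrin, and from Slc26a4 knockouts. Each genotype gave 3 Affymetrix mouse expression arrays, which carry the numbers of their titles here: 1, 3 and 5 are heterozygous, and 2, 4 and 6 are knockout. The comparison asks how transcripts differ when pendrin is lost, with heterozygotes, which already lack 1 copy, as the controls. The labels used here name no strain, sex or deleted exon, nor how many animals were pooled for an RNA. The p-values therefore reflect only sample-to-sample spread, part of which may be technical.

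Thyroid follicles are balls of epithelium, each wrapped in a basement membrane and set in a thin stroma rich in capillaries. In a basement membrane, collagen IV forms one network, laminin trimers of an alpha, a beta and a gamma chain form another that cells bind through integrins and dystroglycan, and nidogens link the networks. In the stroma, fibroblasts secrete collagens I, III and V, which assemble into fibrils, while fibril-associated collagens coat the fibrils and collagen VI forms fine filaments between cells and fibrils.

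Each level is a linear array signal. Differences are log2(signal + 16.7) in knockout minus heterozygous thyroid, from limma, with p-values adjusted over the 27022 probe sets tested. Array medians ran from 78.1 to 103.6, and 27 bacterial control probe sets set a background of 22.9. Slc26a4 read between 2.10 and 15.7 on the 6 arrays, under that background in both genotypes, so it does not check the labels. The 6 measured thyrocyte markers were above background on every array. Their summed signal was 19401 to 23843 in heterozygous and 19848 to 22020 in knockout samples. Markers of neighbouring cell types were detected too. The summed signal of 5 adipose tissue genes was 28521 to 33011 in heterozygous and 26743 to 34482 in knockout samples, above that of the thyrocyte markers. Among these 5, Ucp1 read 9211 to 11977 and Fabp4 10725 to 12548 on the 6 arrays. The summed signal of 8 skeletal muscle genes was 17268 to 25658 in heterozygous samples, and 26738, 14758 and 5517 on knockout arrays 2, 4 and 6. Knockout 4 also stood apart in 6 thymus and T cell genes, at a sum of 2822 against 64 to 102.3 on the others. Heterozygous 1 had the lowest sum of 2 parathyroid genes, at 272.5 against 2862 to 11212. That gap lay in Pth, at 165.2 against 2788.5 to 11058, while Casr read 107.3 on heterozygous 1 and was lowest on knockout 6, at 73.3. The ratio of the 3' to the 5' actin control, a measure of RNA integrity, was 2.70 to 3.21. In whole tissue, fewer cells of a type and less RNA per cell cannot be told apart.

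Most of the module was expressed in both genotypes. Of the 54 members, 43 were above background on all 6 arrays. The chains Col6a4, Col6a5, Col9a2 and Col17a1 were not well above background on any. Another 7 were above it on some arrays, namely Col2a1, Col7a1, Col10a1, Col11a2, Col19a1, Col24a1 and Lama1. The filter on low values, at a signal of 43.5, left 44 members for testing: the 43 bright ones and Col7a1. The 10 that stayed out were Col2a1, Col6a4, Col6a5, Col9a2, Col10a1, Col11a2, Col17a1, Col19a1, Col24a1 and Lama1.

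Promoter sequences are shown for 2 stromal genes and for the neighbouring collagen IV genes Col4a5 and Col4a6. On the chosen probe sets the first 2 were steady over the arrays and the neighbours ranged unequally. A second bright probe set ranged more widely for Col1a2 (0.43 against 0.31 on the log2 scale) and for Col3a1 (0.45 against 0.28). A second Col4a5 probe set ranged about as widely as Col4a6 (0.77 and 0.74 on the log2 scale). Each sequence is the 200 bases directly before the outermost RefSeq start of the gene in GRCm38.p6, 5′ to 3′ on the gene's strand, and none of the 4 windows holds another RefSeq gene. Capitals mark 3 motifs on either strand, the CCAAT box, the GC box core GGGCGG and the TATAA motif; in Col3a1 the 2 matches to TATAA overlap.

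Col1a2, chr6:4505418-4505617, plus strand: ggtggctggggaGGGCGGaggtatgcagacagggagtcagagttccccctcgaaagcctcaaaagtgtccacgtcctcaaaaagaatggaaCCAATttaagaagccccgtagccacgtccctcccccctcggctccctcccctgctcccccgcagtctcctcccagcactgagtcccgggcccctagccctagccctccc
Col3a1, chr1:45311338-45311537, plus strand: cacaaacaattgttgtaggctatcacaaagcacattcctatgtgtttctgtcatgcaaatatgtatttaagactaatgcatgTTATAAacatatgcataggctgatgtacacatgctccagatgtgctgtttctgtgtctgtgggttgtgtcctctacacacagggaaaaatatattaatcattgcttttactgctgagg
Col4a5, chrX:141475170-141475369, plus strand: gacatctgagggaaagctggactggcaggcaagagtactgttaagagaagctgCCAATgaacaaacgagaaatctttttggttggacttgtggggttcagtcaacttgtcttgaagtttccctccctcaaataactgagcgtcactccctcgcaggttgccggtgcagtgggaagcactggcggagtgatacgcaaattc
Col4a6, chrX:141474096-141474295, minus strand: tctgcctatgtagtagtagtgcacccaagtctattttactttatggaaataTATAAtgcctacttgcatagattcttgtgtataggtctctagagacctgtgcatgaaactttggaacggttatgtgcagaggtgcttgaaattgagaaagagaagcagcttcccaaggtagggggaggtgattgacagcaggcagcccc

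Of the 4 windows, those of Col1a2 and Col4a5 held CCAAT, the core of a widespread proximal promoter element, which 29.3% of the 32817 promoters in the same table held within the same length. GGGCGG was found in Col1a2 and in 31.0% of promoters. TATAA was found in Col3a1 and Col4a6 and in 18.5% of promoters. The matches are letters in a window and were not related to the signals. RefSeq's table held a promoter for 39 of the 54 members.

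No collagen, laminin or nidogen gene passed the test for a difference between the genotypes. Of the 44 members tested, 0 had risen and 0 had fallen in the knockouts at an adjusted p of 0.05 (limma), as for all probe sets, of which 0% passed in either direction. At an unadjusted p under 0.05 there were 0 of 44, against 0.511% of all probe sets. With independent samples and no difference at all, a share near the threshold of 0.05 would fall under it. The share over all probe sets was well below that, so the p-values may be too large. The reason was not tested. The knockout mean was the higher one for 20 members and the lower one for 24, a share of 45.5% higher against 49.3% of all probe sets. The median difference was -0.02 over the members and -0.0021 over all probe sets. It was 0.022 without heterozygous 3 and 0.017 without knockout 6, and the knockout mean was then the higher one for 25 members and the lower one for 19 in each case. Of the 44 members, 22 changed the sign of their difference when 1 of the 6 arrays was left out, and 22 kept it.

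The 95% interval lay between -1 and 1 on the log2 scale for 41 of the 44 members and between -0.5 and 0.5 for 20. The 3 with a wider interval were Col7a1, Col22a1 and Col25a1. The 3 knockout arrays lay wholly above the heterozygous arrays for 0 of 44 members, against 1.64% of all probe sets. They lay wholly below for Col7a1, Col8a1 and Lamc3, or 6.82% of members against 2.04%, and none of these 3 passed.

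**Figure D1:**
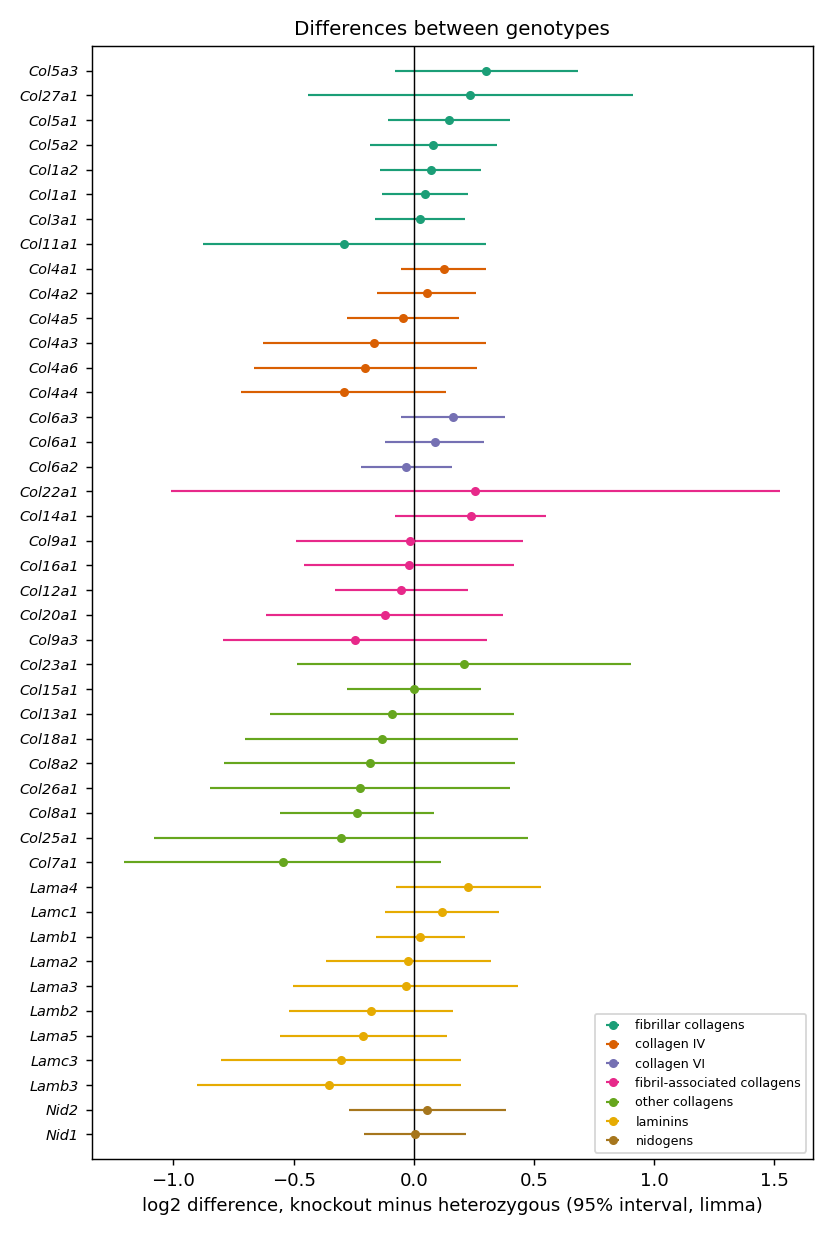
Log2 difference, knockout minus heterozygous, for the 44 members tested, with the 95% interval from limma, coloured by class. Every interval includes 0; the narrowest belong to chains such as Col4a1 and Col1a1 and the widest to Col22a1, from -1.01 to 1.52.

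Of the 8 fibrillar collagens tested, 7 had the higher mean in knockout samples and none passed. Their median difference was 0.08. With 1 array left out that median ran from 0.023 without heterozygous 1 to 0.14 without heterozygous 5, and was 0.027 without knockout 4. Col1a1 and Col1a2 encode the 2 chains of collagen I, the main collagen of fibrous tissue. Col1a1 read 6919, 7779 and 7659.6 on arrays 1, 3 and 5 (heterozygous) and 7405, 8213 and 7459.5 on arrays 2, 4 and 6 (knockout). The highest array was knockout 4 and the groups overlapped, with means of 7453 ± 466 and 7692 ± 452 (SD, n = 3) and a log2 difference of 0.05 ± 0.08 (SE), 95% interval -0.13 to 0.23. Col1a2 read 7023, 6601 and 7521 in heterozygous and 6746, 8187 and 7326 in knockout thyroid, again highest on knockout 4, with a difference of 0.07 (interval -0.14 to 0.28). The sign of both depended on that array: without it the differences were -0.0020 for Col1a1 and -0.0018 for Col1a2. Without heterozygous 1, Col1a1 also turned, to -0.0066. The log2 ratio of the 2 chains moved by 0.26 over the 6 arrays.

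Col3a1, which encodes the fibrillar collagen of pliable tissues such as vessel walls, read 10909.6, 10867 and 11122 in heterozygous and 9959, 12117 and 11513 in knockout thyroid. On this probe set the 3 heterozygous arrays lay close together (SD 136.6) and inside the span of the knockouts, whose lowest and highest arrays were 2 and 4. The difference was 0.03, with an interval of -0.16 to 0.21, and -0.03 without knockout 4. A second bright probe set of Col3a1 read 6534, 8350 and 7180 in heterozygous and 7134, 8949 and 8256 in knockout thyroid. Its heterozygous SD was 920.6, its lowest array was heterozygous 1 and its difference was 0.14.

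Collagen V, which nucleates collagen I fibrils, had 3 chains with the higher knockout mean, and Col5a3 had the most positive difference of the 44 members. Col5a3 read 609, 690.4 and 888 in heterozygous and 784, 932 and 969 in knockout thyroid. Heterozygous 5 overlapped the knockouts, and the difference was 0.30 ± 0.17 (SE) (limma, adjusted p = 1.0) with an interval of -0.08 to 0.68. For Col5a1 the signals were 2065, 2225 and 2232 in heterozygous and 2149, 2740.0 and 2375 in knockout thyroid, with knockout 2 inside the heterozygous range and a difference of 0.15. Its other 2 probe sets gave 0.20 and 0.16. Col5a2 differed by 0.08 (2698 ± 346 and 2847 ± 211), and by -0.0024 without heterozygous 1.

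Most chains of cartilage fibrils were dim. Col2a1, the defining collagen of cartilage, read 12.6, 36.0 and 15.2 in heterozygous and 27.7, 23.5 and 27.7 in knockout thyroid, with 4 of 6 arrays above 22.9. Col11a1, its fibril partner, read 48.8 to 103, with a difference of -0.29 (interval -0.88 to 0.30). Col11a2 (14.3 to 62.9), Col24a1 (13.5 to 33.5) and Col10a1, the collagen of hypertrophic cartilage (10.2 to 23.7), were not tested. Of the 11 cartilage markers, Matn1, Matn3 and Snorc were under background on all 6 arrays. The list's summed signal was 4020 to 5151 in heterozygous and 4575 to 5375 in knockout samples. Most of it came from Sox9, at 2592 to 4046, while Acan read 23.5 to 44.6.

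Collagen VI, which links cells to the fibril network and is known from congenital muscular dystrophies, was steady in its 3 main chains. Col6a3 read 2762, 2974 and 3242 in heterozygous and 3139, 3487 and 3428 in knockout thyroid. Heterozygous 5 lay above knockout 2, and the difference was 0.16 ± 0.09 (SE) (limma, adjusted p = 1.0). Col6a1 (4396 ± 437 and 4655 ± 144) differed by 0.09 and Col6a2 (5140.1 ± 276 and 5034 ± 325) by -0.03, with an interval for Col6a2 of -0.22 to 0.16 and a value of 0.019 without knockout 6. Each of these 3 signals stayed within 1.26-fold between the lowest and the highest array. Col6a4 and Col6a5, chains related to that of Col6a3, stayed at 16.5 or less and 16.0 or less.

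All 6 collagen IV chains were expressed in the dissected thyroid, and their chosen probe sets differed in how widely they ranged over the arrays. Col4a1 and Col4a2 make the collagen IV of nearly all basement membranes. Their genes are neighbours that run in opposite directions from starts lying together on chromosome 8, where their RefSeq spans overlap by 85 bases. Col4a1 read 5139, 5441 and 5575 on arrays 1, 3 and 5 (heterozygous) and 6163, 5974 and 5485 on arrays 2, 4 and 6 (knockout), highest on knockout 2 and lowest on heterozygous 1. Knockout 6 lay below heterozygous 5, so the groups overlapped, with a difference of 0.12 ± 0.08 (SE) (interval -0.05 to 0.30) (limma, adjusted p = 1.0). Col4a2 read 5806, 6029 and 6442 in heterozygous and 7005, 6217 and 5789.8 in knockout thyroid, with the same highest array, a difference of 0.05 (interval -0.15 to 0.26). Without knockout 2 the difference of Col4a2 was -0.02. The log2 ratio of Col4a1 to Col4a2 moved by 0.15 over the arrays.

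Col4a3 and Col4a4 encode chains that join that of Col4a5 in the specialised basement membranes of kidney glomerulus, lung and ear, and mutations in these genes cause Alport syndrome. Col4a3 read 2426, 2681 and 1822 on arrays 1, 3 and 5 (heterozygous) and 2403, 2276 and 1537 on arrays 2, 4 and 6 (knockout). Col4a4 read 2117, 2349 and 1865 in heterozygous and 2136, 1822 and 1291 in knockout thyroid. Both were highest on heterozygous 3 and lowest on knockout 6, and heterozygous 5 was the lowest of its group. The difference was -0.16 for Col4a3 and -0.29 ± 0.18 (SE) for Col4a4, whose interval was -0.72 to 0.13 (limma, adjusted p = 1.0). Without knockout 6 the difference of Col4a3 was 0.04. The second probe set of Col4a3 had its highest and lowest values on the same arrays, at 975.6 on heterozygous 3 and 495.4 on knockout 6, as had the brighter of the 2 further probe sets of Col4a4, at 2186 and 1418. These 2 genes also start next to each other in opposite directions, on chromosome 1. Their log2 ratio moved by 0.35 over the 6 arrays, whereas the ratio of Col4a1 to Col4a4 moved by 0.87.

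Col4a5 and Col4a6 lie head to head on the X chromosome with 1274 bases between their RefSeq starts, and the shown upstream windows face each other across that gap. On the chosen probe sets Col4a5 was the steadier, with a range of 0.35 on the log2 scale. It read 4308, 5088 and 3979 in heterozygous and 4314, 4422 and 4162 in knockout thyroid. A second, dimmer Col4a5 probe set ranged by 0.77, highest on heterozygous 3 (1569) and lowest on knockout 6 (913). Col4a6, whose chain pairs with that of Col4a5 in other epithelial and smooth muscle basement membranes, read 1708, 1855 and 1313 in heterozygous and 1824, 1358 and 1101 in knockout thyroid, a range of 0.74. It was highest on heterozygous 3 and lowest on knockout 6, as were Col4a3 and Col4a4. The differences were -0.05 for Col4a5, with an interval of -0.28 to 0.19, and -0.20 for Col4a6, with one of -0.67 to 0.26. Without heterozygous 3 that of Col4a5 was 0.05. As a class the 6 chains had a median difference of -0.10, which was 0.0070 without knockout 6 and -0.00063 without heterozygous 3.

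**Figure D2:**
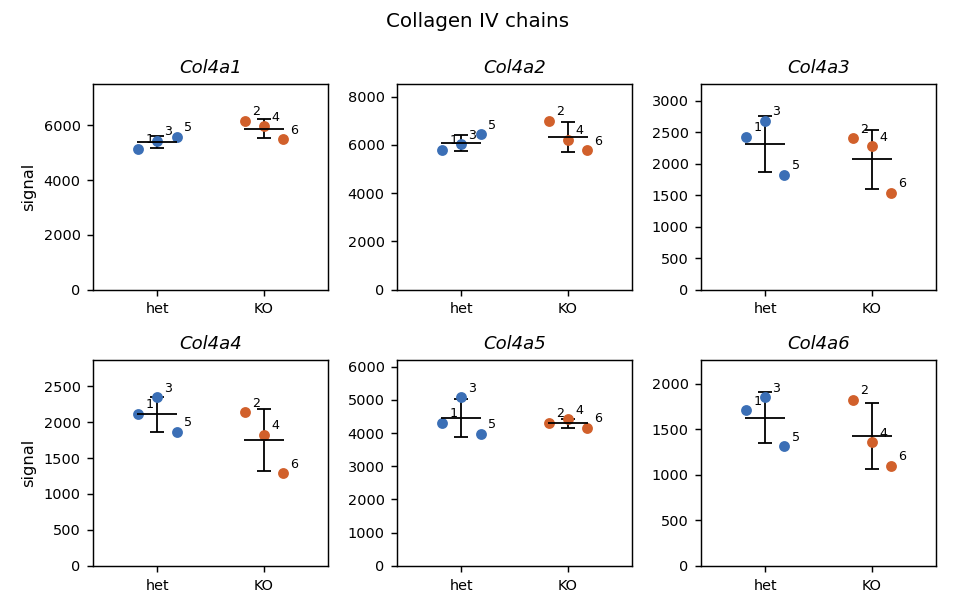
Signal of the 6 collagen IV genes on each array (points, numbered by sample) by genotype, with the mean and SD of the 3 arrays in black; each vertical axis is linear, starts at 0 and has its own scale. On the probe sets shown, Col4a1, Col4a2 and Col4a5 stay in a narrow band, while Col4a3, Col4a4 and Col4a6 are lowest on knockout 6 and highest on heterozygous 3.

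Of the 9 laminins tested, 3 had the higher knockout mean and 6 the lower. Lamc1, the gamma chain of most laminins, read 2586, 2832 and 2696 in heterozygous and 2604, 3236 and 2996 in knockout thyroid, highest on knockout 4. Its difference was 0.12 with an interval of -0.12 to 0.35. Lamb1, its most common beta partner, was on its chosen probe set the steadiest of all 44, with a range of 0.15 and means of 3344 ± 191 and 3405 ± 26.6. Its difference of 0.03 was -0.02 without heterozygous 5. The other tested probe sets of Lamb1 ranged by 0.38 and 0.35, with differences of 0.04 and -0.08. The beta chain Lamb2, prominent in the glomerulus and at the neuromuscular junction, read 1131, 919 and 966 in heterozygous and 1029, 882 and 758 in knockout thyroid, lowest on knockout 6. Its difference was -0.18, with an interval of -0.52 to 0.16.

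Lama4, the alpha chain of vessel basement membranes, had the higher mean in knockout samples. It read 1548, 1892 and 1958 in heterozygous and 1830.5, 2278 and 2212 in knockout thyroid. Only knockout 2 lay within the heterozygous range, and the difference was 0.23 ± 0.13 (SE) with an interval of -0.08 to 0.53 (limma, adjusted p = 1.0). A dimmer probe set of Lama4 (178 ± 2.24 and 218 ± 13.3) gave 0.27, with its 3 knockout arrays above the heterozygous ones. The endothelial marker list stood highest on knockout 4 as well, with a median deviation of 0.20 over its 8 genes against -0.15 on heterozygous 1, where Lama4 was lowest. On knockout 6, where Lama4 read 2212, the endothelial median was 0.0054. The fibroblast list was highest on knockout 4 too, with a median deviation of 0.13, and was at -0.12 on heterozygous 1 and 0.09 on knockout 6. The part of endothelial or fibroblast content in the Lama4 values was not tested.

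Lama5, the main alpha chain of adult epithelial basement membranes, had the lower knockout mean. It read 524, 558 and 459 in heterozygous and 470.4, 379 and 479 in knockout thyroid, lowest on knockout 4, with a difference of -0.21 ± 0.15 (SE), interval -0.56 to 0.14. The second tested probe set gave -0.23. The log2 ratio of Lama4 to Lama5 moved by 1.002 over the arrays, lowest on heterozygous 1 and highest on knockout 4. Lama2, the alpha chain of muscle and nerve, read 1155, 1362 and 1476 in heterozygous and 1246, 1147 and 1551 in knockout thyroid, with a difference of -0.02 that was positive without knockout 2 (0.010), without knockout 4 (0.069) or without heterozygous 5 (0.055).

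Lamb3 and Lama3 belong to the laminin that anchors epithelium through hemidesmosomes. Lamb3 read 794, 752 and 524 in heterozygous and 705, 527 and 396 in knockout thyroid, with heterozygous 5 and knockouts 4 and 6 low and a difference of -0.35 ± 0.24 (SE) (limma, adjusted p = 1.0). Knockout 6 was lowest, as for Col4a6. Lama3 read 129 ± 26.6 and 124 ± 11.1 and differed by -0.03, or by 0.10 without heterozygous 3 and 0.03 without knockout 4. Lamc3, a gamma chain found in nerve, skin and reproductive tissues, read 79.3, 66.8 and 64.4 in heterozygous and 58.3, 59.4 and 44.1 in knockout thyroid. All 3 of its knockout arrays lay below the heterozygous ones, by a difference of -0.30 with an interval of -0.80 to 0.20, and it was dim. A dimmer probe set of Lamc3 gave -0.31 with overlapping groups. Lama1, the alpha chain of the early embryo, read 20.7 to 52.7 and was not tested. The median difference of the 9 tested laminins was -0.03, and 0.03 without knockout 4.

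The 2 nidogens differed little between genotypes. Nid1 read 5595, 5404 and 5163 in heterozygous and 5034, 6100.4 and 5131 in knockout thyroid. Its highest array was knockout 4 and its lowest knockout 2, so the heterozygous arrays lay within the knockout range, and the difference was 0.0044 with an interval of -0.21 to 0.22. Without knockout 4 it was -0.08 and without heterozygous 5 it was -0.03. Nid2, its partially redundant relative, read 628, 824 and 648 in heterozygous and 713, 770.4 and 688 in knockout thyroid and differed by 0.06, with an interval of -0.27 to 0.38 and a value of -0.015 without heterozygous 1. Their median difference of 0.03 was -0.04 without knockout 4 and -0.0094 without heterozygous 5.

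**Figure D3:**
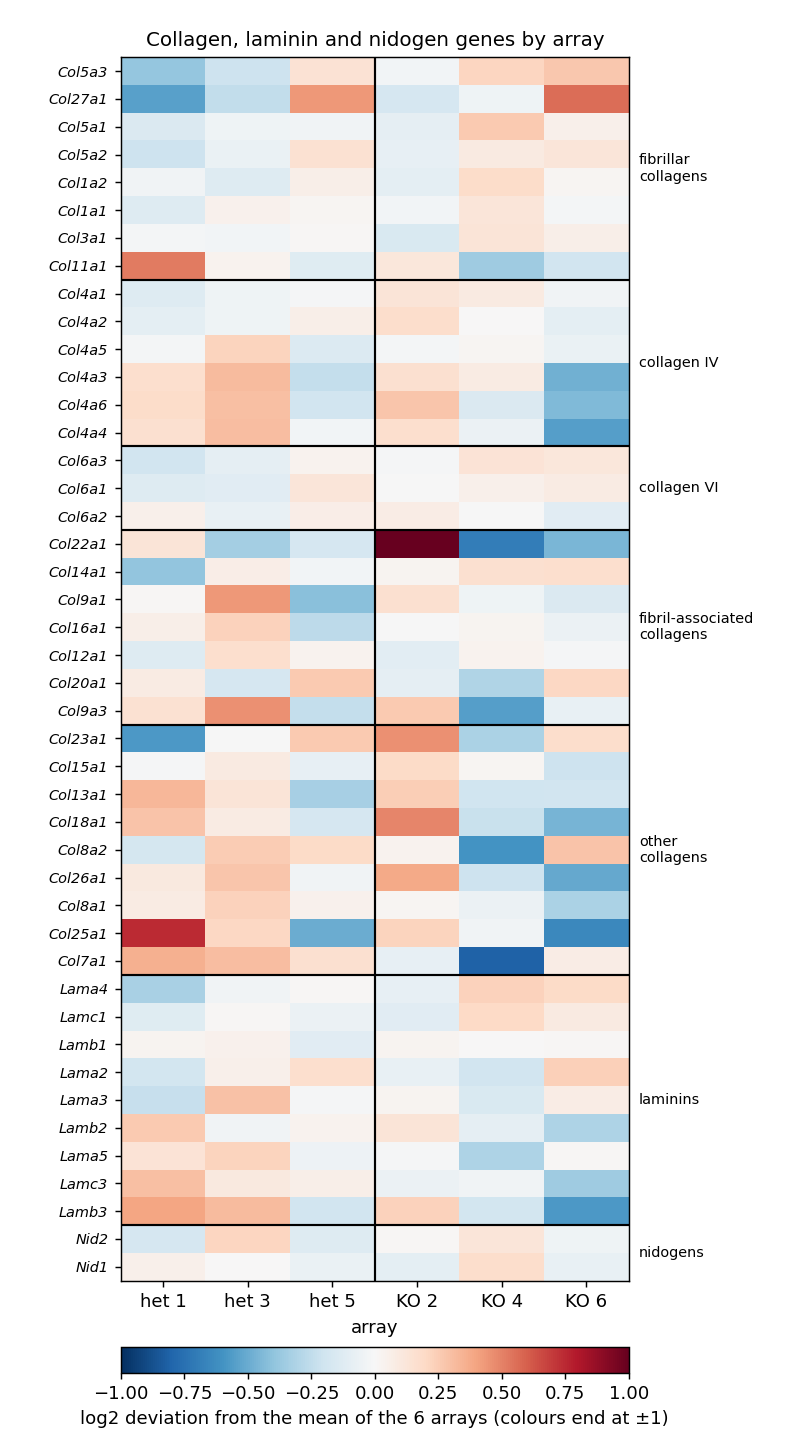
Log2 deviation of each of the 44 tested members from its own mean over the 6 arrays (colour, ending at ±1), with members grouped by class in rows and arrays by genotype in columns. No class is of 1 colour throughout a genotype; Col22a1 on knockout 2 is the strongest single deviation.

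Of the 7 fibril-associated collagens tested, 2 had the higher knockout mean and 5 the lower, with a median difference of -0.02. That median was 0.089 without heterozygous 3 and 0.0025 without knockout 6. Col14a1, which coats collagen I fibrils in skin and tendon, read 1296, 1797 and 1683 in heterozygous and 1746, 1916 and 1926 in knockout thyroid. Heterozygous 1 was the lowest and the groups overlapped through heterozygous 3, with a difference of 0.24 ± 0.14 (SE) (interval -0.08 to 0.55) (limma, adjusted p = 1.0). A second probe set gave 0.28, and the dimmest gave -0.26. Col12a1, another coat of collagen I fibrils, differed by -0.05 (958 ± 98.8 and 921 ± 44.3) and Col16a1 by -0.02 (155 ± 28.9 and 151 ± 5.01). Without heterozygous 3 these were 0.019 and 0.089, and Col16a1 was also positive without heterozygous 1 (0.0051) and without knockout 6 (0.0025).

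Collagen IX is known as the coat of collagen II fibrils in cartilage, and 2 of its 3 chains were well above background on all 6 arrays. Col9a1 read 1588, 2133 and 1174 in heterozygous and 1760.3, 1528 and 1425 in knockout thyroid and Col9a3 read 1308, 1624 and 993 in heterozygous and 1413, 800.3 and 1116 in knockout thyroid. Both were highest on heterozygous 3, and the lowest array was heterozygous 5 for Col9a1 and knockout 4 for Col9a3. The differences were -0.02 with an interval of -0.49 to 0.45 and -0.24 with one of -0.79 to 0.31. That of Col9a1 was 0.19 without heterozygous 3 and 0.05 without knockout 6. Col9a2, the remaining chain of the trimer, read 2.01 to 22.2 and was not well above background on any array. The further probe set of Col9a1 also had heterozygous 3 highest and heterozygous 5 lowest. Which cells the Col9a1 and Col9a3 transcripts came from was not tested.

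Of the anchoring, short-chain, membrane-spanning and other collagens, 7 of the 9 tested had the lower knockout mean, with a median difference of -0.18. With 1 array left out that median ran from -0.31 without knockout 2 to -0.023 without knockout 6. It was -0.026 without heterozygous 1 and -0.054 without knockout 4. Col7a1, which forms the anchoring fibrils of skin, was dim, at 65.5, 62.7 and 55.0 in heterozygous and 44.1, 20.1 and 50.8 in knockout thyroid. All 3 knockout arrays lay below the heterozygous ones, with knockout 4 under background, and the difference was -0.54 ± 0.29 (SE) with an interval of -1.20 to 0.11 (limma, adjusted p = 1.0). Col8a1, a short-chain collagen of vessels and of the corneal endothelium's membrane, read 652, 724 and 636 in heterozygous and 623, 592 and 489.9 in knockout thyroid. The knockout arrays again lay below the heterozygous ones, knockout 2 by the smallest step, and the difference was -0.24 ± 0.14 (SE) with an interval of -0.56 to 0.08 (limma, adjusted p = 1.0). Its dimmer probe sets gave -0.16 and -0.22 with overlapping groups.

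The multiplexins, which bridge basement membranes to the stroma, differed in their spread. Col15a1 read 1999 ± 122 and 2012 ± 278 and differed by 0.002, with an interval of -0.28 to 0.28 and values of -0.09 to -0.0026 without each of heterozygous 1, heterozygous 5, knockout 2 and knockout 4. Col18a1, the source of endostatin, ranged more widely, at 943, 818 and 686 in heterozygous and 1091, 659 and 554 in knockout thyroid. It was highest on knockout 2 and lowest on knockout 6, within the same genotype, and its difference of -0.13 was 0.07 without knockout 6. Col8a2, the partner of Col8a1, differed by -0.18 (154 ± 26.0 and 137 ± 44.7), and by 0.07 without knockout 4.

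Of the 6 tested members with the widest range over the arrays, Col7a1 was the 1 whose groups did not overlap. Col22a1, a collagen of tissue junctions such as the muscle and tendon border, had the widest range of all 44, at 2.23 on the log2 scale. It read 53.5, 34.2 and 40.6 in heterozygous and 169.7, 23.1 and 30.3 in knockout thyroid. Only knockout 2 stood apart, and a second, dimmer probe set read 59.2 there against 5.64 to 17.4 elsewhere, whereas the remaining one read 38.0 there against 25.2 to 51.7. The difference was 0.26, and -0.45 without knockout 2.

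Col25a1, a membrane-spanning collagen needed for motor axons to reach muscle, read 577, 392 and 235 in heterozygous and 398, 330.4 and 210.1 in knockout thyroid. Heterozygous 1 was highest, and heterozygous 5 and knockout 6 were lowest, with a difference of -0.30 (interval -1.08 to 0.48). The summed skeletal muscle signal was 25658, 20127 and 17268 in the heterozygotes 1, 3 and 5, against 26738, 14758 and 5517 in the knockouts 2, 4 and 6, so heterozygous 1 and knockout 2 were the highest 2 arrays and knockout 6 the lowest, as for Col25a1. The thyrocyte list was also highest on heterozygous 1 and knockout 2, with median deviations of 0.25 and 0.14, and was at 0.0052 on knockout 6. Col13a1, a membrane collagen of the neuromuscular junction, was likewise highest on heterozygous 1 and knockout 2, at 370.3, 319 and 228 in heterozygous and 348, 251 and 253 in knockout thyroid. Unlike the muscle sum, Col13a1 was lowest on heterozygous 5. The Col13a1 difference of -0.09 was 0.05 without heterozygous 1. The part of muscle or thyrocyte content in the Col25a1 and Col13a1 values was not tested.

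Col27a1, a fibrillar collagen of developing cartilage, was highest on 1 array of each genotype. It read 172, 214 and 354 in heterozygous and 228, 250.1 and 387 in knockout thyroid, and its second probe set was highest on heterozygous 5 and knockout 6 too, at 280.7 and 429.0. The difference was 0.24 with an interval of -0.44 to 0.91. The median deviation of the 7 tested cartilage markers was 0.10 and 0.12 on those 2 arrays and -0.36 to 0.02 on the others. Of these 7, 2 were highest on knockout 6, while Sox9, with most of the list's signal, was lowest there at 2592. Other lists were above 0 on both arrays too, such as adipose tissue (0.21 and 0.16) and fibroblasts (0.05 and 0.09). The part of cartilage or other cell content in Col27a1 was not tested. The membrane collagen Col23a1 read 49.7, 82.0 and 102 in heterozygous and 119, 62.5 and 94.9 in knockout thyroid, lowest on heterozygous 1. Its difference of 0.21 was -0.03 without that array, and a second probe set gave -0.05.

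**Figure D4:**
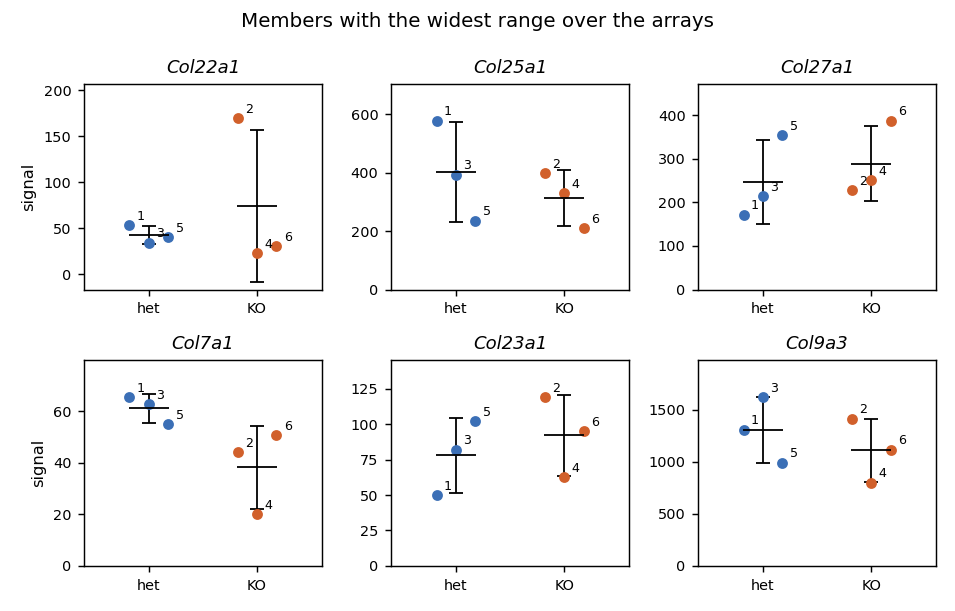
Signal of the 6 tested members with the widest range over the arrays (points, numbered by sample) by genotype, with mean and SD of 3 arrays in black on linear axes. Col22a1 stands apart on knockout 2 only, and Col27a1 is highest on heterozygous 5 and knockout 6.

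The classes did not move together across arrays. Fibrillar collagens and collagen VI were lowest on heterozygous 1, with median deviations of -0.14 and -0.13. Fibrillar collagens were highest on knockout 4, at 0.13. Collagen IV ran differently, at 0.26 on heterozygous 3 and -0.27 on knockout 6. Of the 44 members, 15 had their lowest value on heterozygous 1, or 34.1% against 16.2% of all probe sets, and 5 of these were fibrillar. Another 13 were lowest on knockout 6, or 29.5% against 22.9%, among them 4 of the 6 collagen IV chains. The highest value fell on heterozygous 3 for 13 members, or 29.5% against 16.1%, on knockout 4 for 8, or 18.2% against 11.6%, and on knockout 6 for 5, or 11.4% against 27.8%. These shares describe the arrays, and the members of a class share cells and arrays.

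Marker lists also varied over the arrays. The 9 fibroblast markers had median deviations of -0.12 and -0.17 on heterozygous 1 and knockout 2 and 0.13 on knockout 4. Their summed signal was 31103 to 34489 in heterozygous and 30762 to 37702 in knockout samples. The 6 thyrocyte markers had medians of 0.25 on heterozygous 1 and 0.14 on knockout 2 and lay between -0.10 and 0.0052 on the other 4 arrays. The thyrocyte markers differed among themselves: Cdh16, an epithelial cadherin, read 2548, 2591 and 1856 in heterozygous and 2684, 1959 and 1349 in knockout thyroid and was lowest on knockout 6, as were Col4a3, Col4a4, Col4a6 and Lamb3, while the other 5 were lowest on other arrays. On knockout 6 the list medians were -1.51 for skeletal muscle, -0.845 for parathyroid and -0.32 for airway epithelium, and between 0.0052 and 0.16 for the other lists except thymus and T cells, whose 1 tested gene was at -0.76. The endothelial gene Emcn was also lowest there, at 1860.5, 1892 and 1542 in heterozygous and 2240.2, 1998 and 1135 in knockout thyroid. Of the 8 endothelial genes only Emcn was lowest on knockout 6, while 4 were lowest on heterozygous 1. Cdh16 and Emcn were named after their values were seen. The part of cell composition in any of these patterns was not tested. None of the 11 marker lists had a gene past the threshold (limma, adjusted over all probe sets). All 6 tested skeletal muscle genes had the lower knockout mean, with a median difference of -0.64. All 6 were lowest on knockout 6, while knockout 2 had the highest summed muscle signal of the arrays, at 26738. Of 9 fibroblast genes, 8 had the higher knockout mean, with a median of 0.11, and 5 were highest on knockout 4. Over all probe sets the knockout mean was the higher one for 49.3%.

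**Figure D5:**
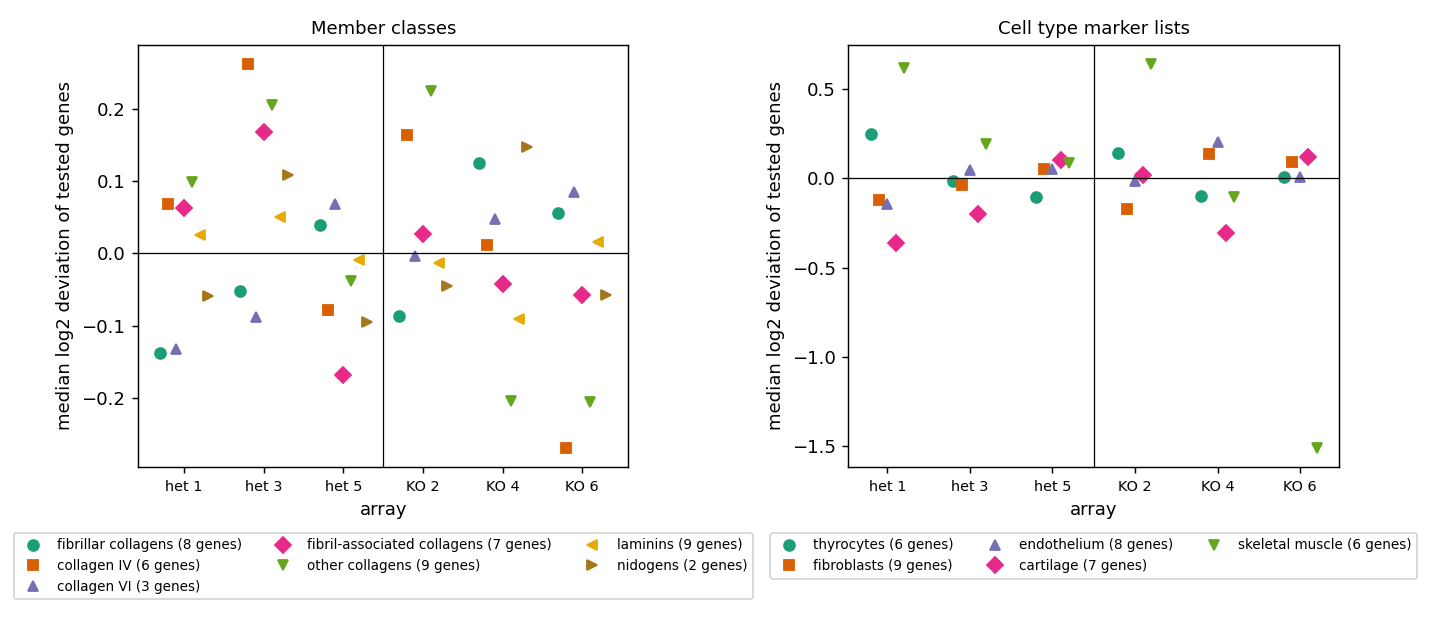
Median log2 deviation of the tested genes of each member class (left) and of 5 cell type marker lists (right) on each array, with heterozygous and knockout arrays on either side of the vertical line. Collagen IV is lowest on knockout 6 and fibrillar collagens on heterozygous 1; the 2 panels have different vertical scales.

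Genes that make, bind and remove these proteins showed no differences past the threshold either, with 0 higher and 0 lower (limma, adjusted over all probe sets) in each of 5 lists. Of the enzymes and chaperones of collagen synthesis and crosslinking, 14 of 25 tested had the higher knockout mean, with a median difference of 0.01. The lysyl hydroxylase Plod2 (691 ± 132 and 565 ± 67.8, difference -0.27) and the lysyl oxidase relative Loxl1 (1635 ± 278 and 1927 ± 435, 0.22) had the smallest p. Among receptors, 5 of 13 were higher, with a median of -0.01. The collagen receptor kinase Ddr1 differed by -0.10 (5306 ± 339 and 4930.4 ± 176) and the collagen uptake receptor Mrc2 by 0.14 (557 ± 30.7 and 615 ± 36.3).

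In matrix degradation 8 of 13 were higher, with a median of 0.04. The collagenase Mmp14 read 342 ± 68.0 and 413 ± 15.2 and the related Mmp16 90.6 ± 9.20 and 69.9 ± 10.5. Other basement membrane proteins were higher in 5 of 15, with a median of -0.01. Fras1 (174 ± 62.8 and 111 ± 36.8, -0.56) and Frem2 (129 ± 6.44 and 93.2 ± 30.2, -0.44), partners in a complex under epithelia, had the smallest p there. In the list of TGF beta, a main inducer of collagen transcription, 9 of 13 were higher, with a median of 0.06. The ligand Tgfb3 read 415, 502 and 513 in heterozygous and 559.9, 516 and 542 in knockout thyroid, with its 3 knockout arrays above the others and a difference of 0.18, and the matricellular target Ccn2 read 3684 ± 205 and 3248 ± 560.2.

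Further probe sets of the same genes mostly pointed the same way. Of 33 other tested probe sets of 26 members, 29 had the sign of the chosen one. They come from the same RNA and are no further replicates. Probe sets whose name ends in s_at or x_at can detect more than 1 transcript, which applies to the chosen ones of Col18a1, Col20a1, Col22a1, Lama5 and Lamb1.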

How the data were processed

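RNA from P15 thyroid was amplified by the NuGEN Ovation method and hybridised to Affymetrix mouse arrays, per the labels' protocols. The deposited values are intensities, 1 linear signal per probe set and array, made with GCOS per the submitters' processing notes (version and settings: not given in the sources used here). After trimming 2% at each end, the mean signal was 500.002 on all 6 arrays, so levels are relative to each array's total. No depth applies to arrays, and their number, 3 a group, limits the precision.

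Of 45101 probe sets, 64 controls were left out. Signals were taken as log2(signal + 16.7), the pseudocount being the 25th percentile of all values, which understates changes of dim genes. The 27022 probe sets with a mean above the 40th percentile were fitted with limma 3.58.1 in R 4.3.3 (lmFit, then eBayes with an intensity trend), with no covariate, and adjusted by Benjamini-Hochberg at 0.05. Intervals are 95%. Genes were named through GEO's platform annotation, in which 34945 probe sets have 1 symbol; all 54 member symbols are also those of RefSeq.

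The members and lists were chosen with earlier results of these data known. Values on every array are given for 13 members chosen by role, for the 6 with the smallest unadjusted p in each direction and for the 6 with the widest range over the arrays; values on every array for other members and the further genes named for context, including Col4a3, Col4a5, Col4a6, Col9a1, Col13a1 and Col18a1, were added after seeing their values. In each pathway list the 2 tested genes with the smallest p are named. Alternatives were quantile and cyclic loess normalization, 0.25 and 4 times the pseudocount, no filter or one at the 60th percentile, no trend, robust fitting, array weights, the mean of a gene's probe sets, and leaving out each array.

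On simulated data for knockout against heterozygous, over the same 27022 probe sets, the fit called 8% of 50 probe sets moved 1.5-fold, 52% of 50 moved 2-fold, 76% of 50 moved 4-fold and 94% of 50 moved 8-fold, with 3 others called. All of these were moved in the same simulation, and noise was drawn independently for each probe set. The rates therefore need not hold for the real arrays.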

Additional observations from a re-analysis of the deposited data

How the results depend on the processing

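The count past the threshold was 0 for all probe sets and for the members under each alternative that gave a test. The members' median log2 difference was -0.052 to 0.022 when each array was left out in turn, and positive without heterozygous 3 (0.022) and without knockout 6 (0.017); it was also 0.0032 with the filter at the 60th percentile. Of 412 alternative values for 26 named members, 398 kept their direction, 14 in 9 members turned, and none passed (limma, smallest adjusted p 0.959). With array weights Col22a1 was -0.14, and without knockout 2 -0.45. Without heterozygous 1, Col1a1 was -0.0066, Nid2 -0.015 and Col23a1 -0.026. Without knockout 2, Col4a2 was -0.021 and Lama2 0.010. Without knockout 4, Col1a1 was -0.0020, Col1a2 -0.0018, Col3a1 -0.034, Lama2 0.069 and Nid1 -0.083. Without heterozygous 5, Lama2 was 0.055 and Nid1 -0.026. Over the 6 omissions of an array the ranges of these members reached from -0.0066 to 0.078 for Col1a1, -0.0018 to 0.14 for Col1a2, -0.034 to 0.11 for Col3a1, -0.021 to 0.12 for Col4a2, -0.15 to 0.069 for Lama2, -0.083 to 0.055 for Nid1, -0.015 to 0.18 for Nid2, -0.45 to 0.67 for Col22a1 and -0.026 to 0.42 for Col23a1. The cause was not tested. No paired fit was run, because the labels name no pairs. The sample numbers alternate between the genotypes, and whether arrays of adjacent numbers belong together was not tested. Over all 44 tested members, 22 changed sign when 1 array was left out, the largest of them at 0.26 in size. With 3 arrays a group, changes under 2-fold were mostly not detectable on simulated data, and the 10 members left out by the filter have no test.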
